A study of Mus musculus with 6 samples.

Results

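The genes described here are 10 genes of choline uptake and phosphatidylcholine synthesis: the choline transporter-like genes Slc44a1, Slc44a2, Slc44a3, Slc44a4 and Slc44a5, the choline kinases Chka and Chkb, the enzyme Pcyt1a, which makes CDP-choline, the cholinephosphotransferase Chpt1 and the methyltransferase Pemt. They are 10 of 22911 mouse genes that could be named on the arrays, and 17 probes measured them. The group was put together because Slc44a5 was far lower in the mutant cells, so the values of Slc44a5 are given as a description without a test. The other members were picked by pathway.

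Choline enters cells through transporters in the plasma membrane, and the Slc44 family includes carriers that move choline without needing sodium. Inside the cell, choline kinase adds a phosphate, Pcyt1a turns phosphocholine into CDP-choline in the step that usually sets the rate, and a choline phosphotransferase joins it to diacylglycerol to form phosphatidylcholine, the main phospholipid of animal membranes. Pemt makes the same lipid by methylating phosphatidylethanolamine, a route known mostly from liver. In brain, choline is also the precursor of acetylcholine, and phosphocholine and other choline compounds form a signal that is followed in gliomas by magnetic resonance spectroscopy.

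RNA was measured in 2 groups of 3 samples. WT cells were OS3 glial cells, a line from the brain of male C3H mice immortalized with SV40, that carried the empty vector. IG27 cells were OS3 cells with the H3.3K27M mutation, in which lysine 27 of the histone variant H3.3 is replaced by methionine. Per the study's methods, IG27 cells were made by transfecting a plasmid with the mutant H3f3a gene and selecting drug-resistant clones, so the introduced gene is extra to the cells' own, and the sources used here do not say how many clones the arrays sample. Both groups grew for 2 days in the same medium with serum, insulin and added glucose. Nothing in the labels says that the 3 samples of a group came from separate cultures or transfections, so p-values measure the spread between these samples, which may be technical.

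Each sample was hybridized to 1 single-color Agilent array. Levels are given as normalized log2 intensity, which is log2 of the processed signal minus the 75th percentile of the array, so 0 lies at the 75th percentile and levels of different probes are not comparable. Array pairs of 1 group correlated at 0.994 to 0.997 and pairs across groups at 0.902 to 0.905 (Pearson r across tested genes, which are not replicates). On the 5 arrays with complete scanner output, 58.8% to 61.2% of probes were well above background and none was saturated. The scanner output of IG27 replicate 2 was incomplete, and its values came from the deposited value table, without background flags. WT replicate 2 shared a row of the slide with all IG27 arrays, and WT replicates 1 and 3 lay in another row, so a value within a row compares IG27 cells with WT replicate 2 alone.

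Of 16 markers of glia and glial progenitors, 13 were above background in WT and 16 in IG27 cells. In IG27 cells 7 were called higher and 6 lower, beside 30.5% and 40% of all genes tested. The higher ones included Fabp7, at least 110-fold, Slc1a3, at least 20.6-fold, and on the log2 scale S100b at 4.93 and Pdgfra at 2.36. Fabp7 and Slc1a3 were at background in WT cells and entered the test only through the IG27 arrays. The lower ones included Aldh1l1 at -1.72, Gfap at -1.07 and Slc1a2 at -1.03. Aldh1l1 varied widely among IG27 arrays, at -2.14, -3.25 and -3.54 (SD 0.74). The summed level of the 16 markers is dominated by the brightest probes (Vim, Gfap and Sox10). It ran from 342 to 358 times the 75th percentile in WT arrays and from 278 to 292 in IG27 arrays. The 6 fibroblast markers summed to 150 to 154 and to 134 to 142, with Lum not above background on any array. Col1a1 and Col3a1 make up most of that sum. Col1a1 and Pdgfrb fell by 0.92 and 1.16. Col3a1 rose by 1.57, and Dcn, at background in WT cells, was at least 3.32-fold higher. Col1a2 was dim, above background on 2 of 3 WT arrays and 1 of 2 IG27 arrays with flags, and was not tested. Of 5 endothelial markers, Cdh5, Tek and Cldn5 were above background on no array, and the sum was 0.172 to 0.194 in WT and 2.6 to 2.67 in IG27 cells, where Kdr, a receptor for vascular endothelial growth factor, was at least 135-fold higher. The IG27 sum is nearly all Kdr, and Pecam1, the other endothelial marker above background, fell by 0.27. Microglial markers summed to 11.7 to 12.2 and 12 to 12.4, with Cx3cr1 and Ptprc never above background. That sum is mostly Itgam, which rose by 0.20. Csf1r fell by 1.57, and Aif1, above background on 1 of 3 WT arrays, rose by 1.66. Neuronal markers summed to 5.53 to 6.78 and 5.46 to 6.12, with Rbfox3, Syt1 and Neurod1 never above background. That sum is mostly Snap25. Snap25 and Syp were above background on every array with flags and were not called (-0.11 and -0.08). The part of these shifts in the values below was not tested, and fewer cells of a type and less RNA per cell cannot be told apart.

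The H3.3K27M protein is known to inhibit the complex that places the repressive mark H3K27me3, which acts mostly at promoters rich in CpG. RefSeq promoters (assembly GRCm38.p6, 250 bases before and 50 after a start) were found for 10 of 10 members, 15 in all. The 300 bases of the Slc44a5 promoter hold 23 CpG, more than 78.5% of all 32851 promoters, which have a median of 7. Slc44a1 has 43, Chka 33, Chpt1 29 and the promoters of Pcyt1a 33, 29 and 18. Slc44a3 and Chkb have 14, Slc44a4 13, the promoters of Slc44a2 16 and 7 and those of Pemt 2 and 3. The GC box GGGCGG, searched on both strands, was found in 11 of the 15 promoters, against 35.7% of all promoters. By gene, 9 of 10 members (all but Pemt) had it in at least 1 promoter. Some of the 15 overlap, many are rich in G and C, and enrichment was not tested. The stretches before the starts of Slc44a5 and Slc44a3, whose signals were lower in IG27 cells, and of Chka, whose signal was higher, are printed 5′ to 3′ on the gene's strand with each CpG in capitals. All 3 promoters hold more CpG than the median promoter. A link between CpG and the direction of a difference was not tested.
Slc44a5, chr3:153973186-153973435, + strand: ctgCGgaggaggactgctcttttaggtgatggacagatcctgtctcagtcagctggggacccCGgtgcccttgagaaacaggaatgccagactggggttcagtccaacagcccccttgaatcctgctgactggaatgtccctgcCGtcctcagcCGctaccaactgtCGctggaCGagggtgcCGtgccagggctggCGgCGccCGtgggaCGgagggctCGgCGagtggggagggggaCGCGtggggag
Slc44a3, chr3:121532345-121532594, - strand: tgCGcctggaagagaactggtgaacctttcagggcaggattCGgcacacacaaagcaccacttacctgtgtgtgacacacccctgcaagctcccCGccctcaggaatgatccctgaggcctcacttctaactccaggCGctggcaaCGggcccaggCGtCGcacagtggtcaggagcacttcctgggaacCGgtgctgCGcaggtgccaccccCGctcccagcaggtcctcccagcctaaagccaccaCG
Chka, chr19:3851523-3851772, + strand: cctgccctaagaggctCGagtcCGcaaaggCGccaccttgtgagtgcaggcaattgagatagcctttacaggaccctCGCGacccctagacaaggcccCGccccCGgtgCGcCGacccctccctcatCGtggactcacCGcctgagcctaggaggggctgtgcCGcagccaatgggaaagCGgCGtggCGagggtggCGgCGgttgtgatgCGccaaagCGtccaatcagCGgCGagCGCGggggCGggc

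Slc44a5, one of the less studied transporter-like proteins, went from a bright signal to background. Its brighter probe read 1.87, 1.63 and 1.82 on WT arrays and -7.43, -7.70 and -7.40 on IG27 arrays (means 1.77 ± 0.13 and -7.51 ± 0.17, SD, n = 3). Before scaling these are processed intensities of 3913, 3222 and 3480 against 6.36, 5.45 and 5.93. Every WT array lay far above every IG27 array. The probe was well above background on 3 of 3 WT arrays and on 0 of the 2 IG27 arrays with flags. The measured means differ by -9.28 on the log2 scale, and since the IG27 level is at background the difference is best given as at least 138-fold lower. That bound sets the WT mean against the lowest signals called well above background on the IG27 arrays.

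The second Slc44a5 probe, annotated to the same transcript, gave the same picture from a dimmer start. It read -2.29, -2.59 and -2.33 in WT and -7.44, -7.77 and -7.47 in IG27 cells, a measured difference of -5.16 and a bound of at least 7.66-fold lower. Within the slide row of the IG27 arrays, the differences were -9.14 and -4.97. Ranked by measured difference, Slc44a5 stood at place 3 from the lowest of 14898 genes tested; ranks among genes at background have no firm order.

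**Figure D1:**
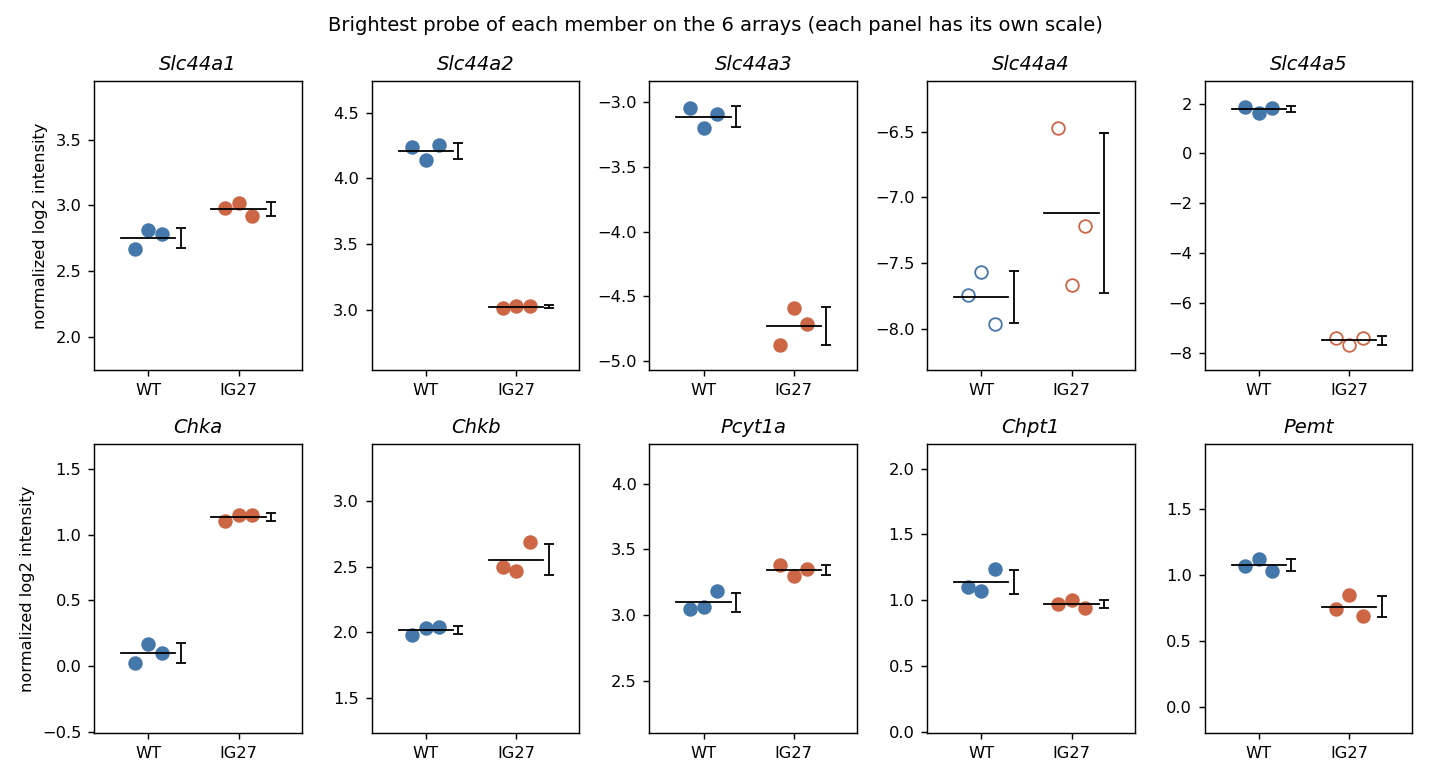
Normalized log2 intensity (y axis, each panel with its own scale) of the brightest probe of the 10 members on the 3 WT (blue) and 3 IG27 (orange) arrays; lines are means, bars are SD over 3 arrays, and open circles mark groups with no array above background. Slc44a5 drops to background in IG27 cells, Slc44a2 and Slc44a3 are lower, Chka is higher, and Slc44a4 is at background throughout.

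Among the 9 other members, 8 were bright enough to test: 4 rose in IG27 cells, 3 fell and 1 was not called (adjusted p under 0.05, limma with Benjamini-Hochberg adjustment over all genes). The same threshold called 70.5% of all genes tested, 30.5% higher and 40% lower, so 7 of 8 is a share near that of genes at large. At 2-fold or more, 1 member was higher and 2 were lower, where 23.1% of all genes passed. The groups did not overlap for 8 of 8 members, as for 75.7% of all genes. The median log2 difference of the 8 was 0.03 and their median absolute difference 0.422, against -0.07 and 0.465 over all genes.

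Slc44a2, a widely expressed transporter-like protein found in the plasma membrane and mitochondria, fell in IG27 cells. It read 4.24, 4.14 and 4.25 in WT and 3.01, 3.03 and 3.03 in IG27 cells. The 3 IG27 arrays read nearly the same and lay more than 1 log2 unit below any WT array. The difference was -1.19 (SE 0.05, limma adjusted p = 3.93e-06), 2.28-fold.

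Slc44a3, a less studied family member, fell too, from a dim start. Its readings were -3.04, -3.20 and -3.09 in WT and -4.88, -4.59 and -4.72 in IG27 cells, or intensities of 130, 113 and 116 against 37.3, 47.1 and 37.8. The groups stood well apart and the probe was above background on every array with flags. The difference was -1.62 (SE 0.09, limma adjusted p = 1.18e-05), 3.07-fold. With normexp background correction the difference shrank to -0.73, still called. That alternative used the 5 complete arrays and an offset of 50, which narrows differences of dim signals. The part of the offset in this value was not tested.

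Slc44a1, the best characterized choline transporter of the family, was slightly higher in IG27 cells. Its brightest probe read 2.67, 2.81 and 2.78 in WT and 2.98, 3.02 and 2.92 in IG27 cells. The groups came close without overlapping, and the difference was 0.22 (SE 0.06, limma adjusted p = 0.0151), 1.16-fold. This call did not survive the slide row as a block (0.16, limma adjusted p = 0.145) or leaving out IG27 replicate 2 (0.19, limma adjusted p = 0.0539).

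The remaining Slc44a1 probes did not move alike. A second probe of the same transcript (NM_133891) differed by 0.21 (95% interval 0.03 to 0.40). The probe annotated to another transcript of the gene, NM_001159633, read -2.55, -2.46 and -2.42 in WT and -1.75, -1.81 and -1.65 in IG27 cells. That is a difference of 0.74 (95% interval 0.59 to 0.90), and the interval lies above those of the other probes. Across probes, limma called 69.7% of 21895, these 3 included.

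Slc44a4, known as a carrier of thiamine pyrophosphate and linked to acetylcholine synthesis, gave no signal above background. It read -7.74, -7.57 and -7.96 in WT and -6.47, -7.67 and -7.22 in IG27 cells, with overlapping groups, and intensities between 3.96 and 12.4. It was not tested, and no difference can be read from it.

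**Figure D2:**
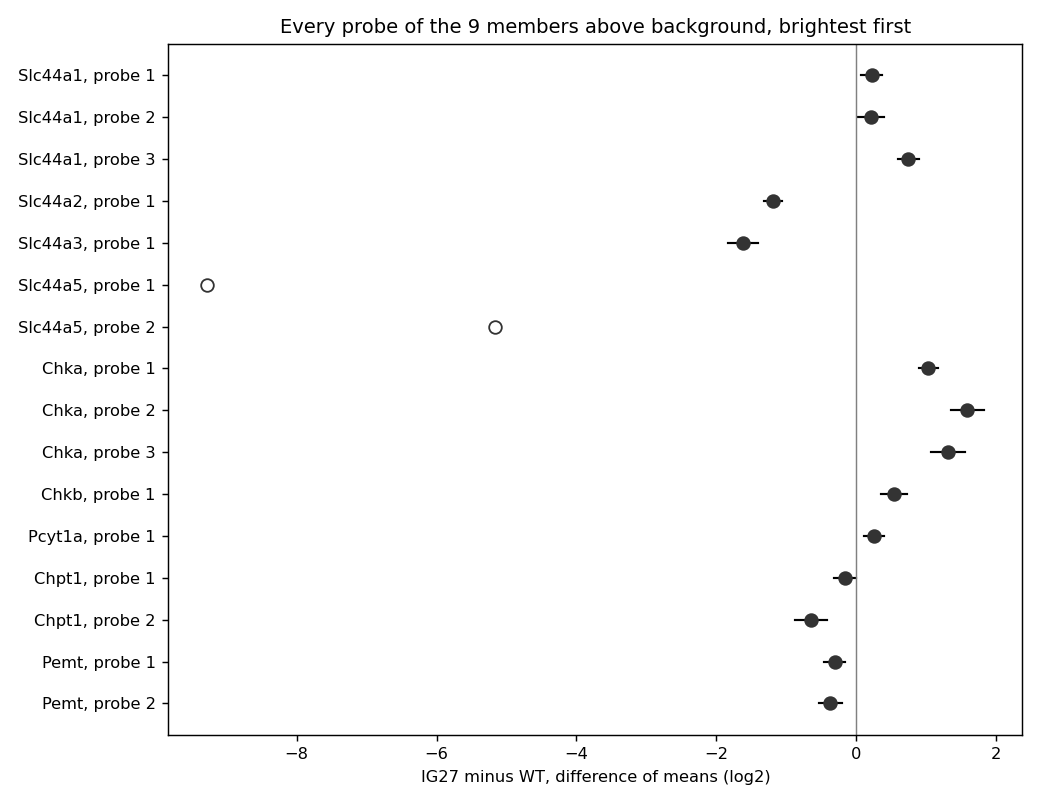
Difference of means, IG27 minus WT, in log2 units (x axis) for each of the 16 probes of the 9 members above background; lines are 95% intervals from limma over probes, and open circles mark probes at background in IG27 cells, drawn without an interval. The Slc44a5 probes stand at -9.28 and -5.16, Chka probes lie from 1.03 to 1.58, and both Chpt1 and Pemt probes lie below 0.

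Chka, the choline kinase most often studied in tumors, rose in IG27 cells. Its brightest probe read 0.02, 0.17 and 0.10 in WT and 1.10, 1.15 and 1.15 in IG27 cells. Every IG27 array lay above every WT array, with a difference of 1.03 (SE 0.06, limma adjusted p = 1.16e-05), 2.05-fold. A second probe read -1.19, -1.09 and -1.12 against 0.25, 0.53 and 0.58, a difference of 1.58. The third differed by 1.31, so 3 of 3 probes read over 2-fold higher. For the brightest, the difference was 0.96 within the slide row and 0.93 with normexp, just under 2-fold.

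Chkb, the second choline kinase, which also acts on ethanolamine, rose less. It read 1.98, 2.03 and 2.04 in WT and 2.50, 2.47 and 2.69 in IG27 cells. The difference was 0.54 (SE 0.07, limma adjusted p = 7.32e-04), 1.45-fold, and it kept its call within the slide row (0.53, limma adjusted p = 0.0111). The annotation places the transcripts Gm44502 and C730034F03Rik across the same locus. It also places Gm40185, Gm3076, Gm32399 and Gm40184 across Slc44a5, Gm39302 across Slc44a2, Gm38684 across Slc44a3 and Gm38498 across Pemt. Probe sequences were not used here, so what the probes can pick up from these transcripts is not known.

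Pcyt1a, the rate-setting enzyme, was higher by a small step. It read 3.05, 3.06 and 3.18 in WT and 3.38, 3.30 and 3.35 in IG27 cells. The groups were separate, and the difference of 0.25 (SE 0.06, limma adjusted p = 0.00797) amounts to 1.19-fold.

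Chpt1, which joins CDP-choline to diacylglycerol in the Golgi, was not called on its brightest probe. That probe read 1.10, 1.07 and 1.24 in WT and 0.97, 1.0 and 0.94 in IG27 cells, a difference of -0.16 (95% interval -0.31 to -0.02, limma adjusted p = 0.0505). The dimmer probe read -0.72, -1.01 and -0.80 in WT and -1.60, -1.45 and -1.42 in IG27 cells, a difference of -0.65 (limma adjusted p over probes = 9.99e-04). The 2 probes thus pointed the same way with unequal size. Sycp3, a protein-coding gene, overlaps Chpt1 in the annotation. The gene was called lower under 5 of 18 alternatives, and within the slide row the brightest probe differed by -0.09.

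Pemt, the enzyme of the methylation route, fell. Its brightest probe read 1.07, 1.12 and 1.03 in WT and 0.74, 0.85 and 0.69 in IG27 cells. The difference was -0.31 (SE 0.06, limma adjusted p = 0.00419), 1.24-fold, and the second probe differed by -0.37. Both probes kept the groups apart.

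By role, of the 3 tested transporters other than Slc44a5, 1 was higher and 2 lower, where 30.5% and 40% of all genes were. Of the 5 enzymes, the kinases and Pcyt1a, which act before diacylglycerol is joined, were higher, and Pemt was lower; such small counts are not set apart from genes at large. The SD within a group was 0.14 or less for the brightest probe of each of these 8 members, so the differences named above exceed the spread between arrays, with Chpt1 and Slc44a1 nearest to it.

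The wider pathway was described with a list of 64 other genes, of which 50 were tested. In IG27 cells 15 of these rose, 26 fell and 9 were not called. That is 82% called, against 70.5% of all genes, with a median of -0.26. Among the 49.0 above background in both groups on every array with flags, 14.0 rose and 26.0 fell. At 2-fold or more, 7 of the 50 were higher and 8 lower, where 11.5% and 11.7% of all genes were. Among those above background in both groups, 6 were higher and 8 lower at 2-fold or more. Of the 14 not tested, 10 were above background on no array, among them the neuronal choline transporter Slc5a7 and the phosphatidylcholine transfer protein Pctp.

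In choline uptake, Flvcr2, a choline transporter of the blood-brain barrier, rose from -5.07, -4.78 and -4.96 to 0.61, 0.58 and 0.60. This was a difference of 5.53 (SE 0.08, limma adjusted p = 9.87e-08), 46.3-fold, and every array of both groups with flags was above background. Its WT intensities were only 31.6 to 37.9, and with normexp the difference was 3.97. Its relative Flvcr1 fell by 0.46 and the carnitine transporter Slc22a5 by 0.22, while Mfsd2a, which imports lysophosphatidylcholine, rose by 0.75. A mean over the probes of Slc22a5 put it on the other side of 0 (0.33).

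The other enzymes of the CDP-choline route both fell, Pcyt1b by 0.28 and Cept1, which finishes both phosphatidylcholine and phosphatidylethanolamine, by 0.40. In the parallel route for phosphatidylethanolamine, Pcyt2 rose by 0.77 and Selenoi by 0.62. Etnk2, an ethanolamine kinase, fell by 0.27 on its brightest probe and differed by 0.14 on its dimmest. Ptdss1, which makes phosphatidylserine from phosphatidylcholine, fell by 1.05. The lipins, which supply diacylglycerol, moved apart: Lpin2 rose by 0.78 while Lpin1 fell by 0.81 on its brightest probe and differed by 0.38 on its dimmest.

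In choline oxidation, Aldh7a1, which forms betaine, fell by 1.63. Bhmt, which passes a methyl group from betaine to homocysteine, went from -8.10, -7.85 and -8.35, at background, to -4.28, -4.34 and -4.12, at least 2.88-fold higher by the bound and 1.13 on the log2 scale with normexp background correction. It entered the test only through the IG27 arrays, so its call carries no weight of its own. Chdh, which starts this route, was above background on 1 WT array and was not tested.

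Genes of phosphatidylcholine breakdown were called in both directions, 5 higher and 8 lower of 14 tested, beside 30.5% and 40% of all genes. Enpp2, the secreted enzyme that splits lysophosphatidylcholine into choline and lysophosphatidic acid, read -1.58, -1.49 and -1.54 in WT and 2.73, 2.68 and 2.64 in IG27 cells. It rose by 4.22 (SE 0.05, limma adjusted p = 7.43e-08), 18.7-fold. Pld1, which releases choline from phosphatidylcholine, read 1.35, 1.25 and 1.19 against -2.06, -2.07 and -1.91, and fell by 3.27 (SE 0.07, limma adjusted p = 3.00e-07), 9.66-fold. The phospholipases Pla2g6 and Gdpd3 rose by 1.17 and 1.06, and Pla2g15 and Pnpla6 fell by 1.50 and 1.38 (Pnpla6 -0.75 with normexp). Of the acyltransferases that rebuild lysophospholipids, 4 fell and 1 rose of 6 (all genes, 40% and 30.5%), and the largest difference was that of Mboat1 at -1.90.

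Sphingomyelin synthesis takes its phosphocholine group from phosphatidylcholine. The 2 synthases moved apart, as Sgms1 rose by 1.77 and Sgms2 fell by 1.77. Smpd3, a neutral sphingomyelinase, read 0.94, 0.88 and 0.92 in WT and -4.78, -4.69 and -4.98 in IG27 cells, and fell by 5.73 (SE 0.08, limma adjusted p = 9.87e-08), 53.2-fold. The difference was -4.34 with normexp, -5.14 with the mean of its probes and -4.55 with its dimmest probe, and its IG27 intensities were 31.6 to 44. Smpd2, another neutral sphingomyelinase, rose by 1.02. For Smpd4, WT replicate 1 read -0.27 against 1.61 and 1.74 on the other WT arrays, and its difference turned from 0.38 to -0.27 without that array.

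The transfer proteins Stard7 and Stard10 fell by 0.95 and 0.92. Of the acetylcholine genes, the vesicular transporter Slc18a3 differed by 0.36 (limma adjusted p = 0.0385), a call that was lost under 8 of 18 alternatives. Chat differed by 0.23 and was not called, and Ache and Bche were not above background on any array.

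**Figure D3:**
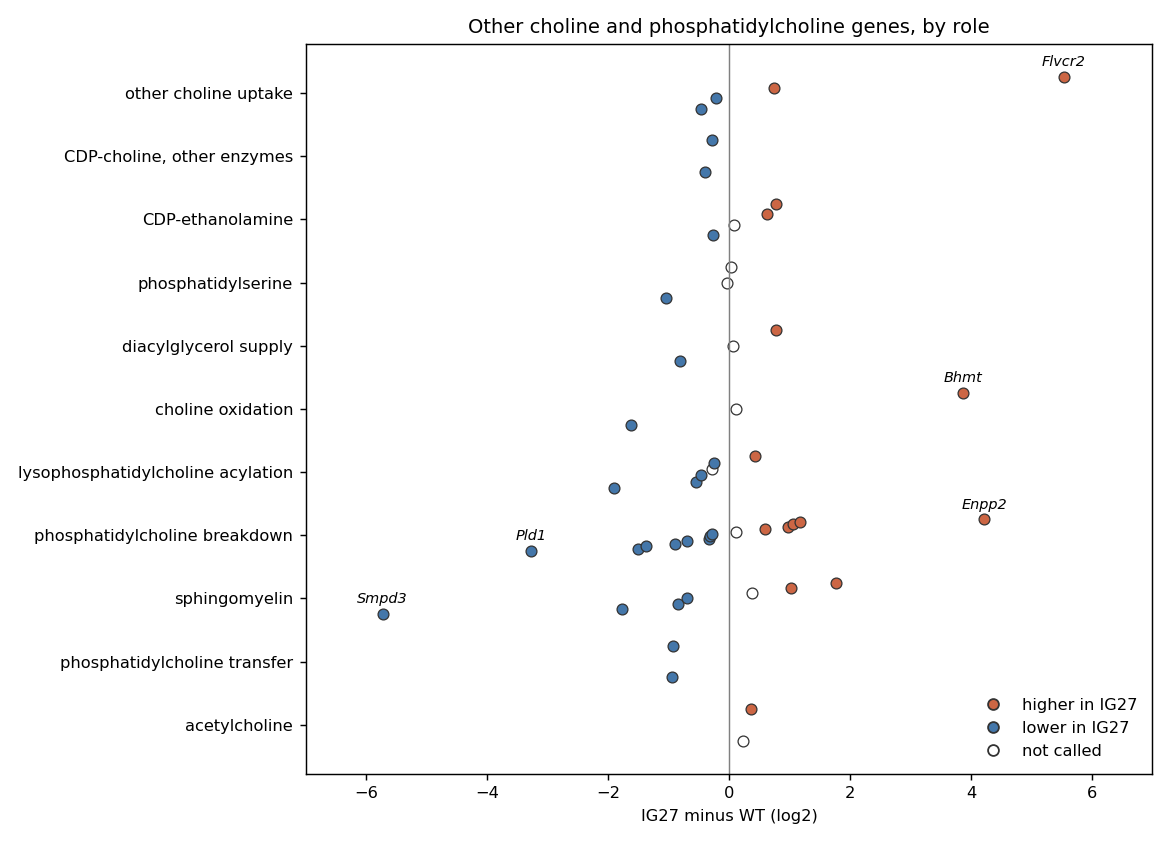
Log2 difference, IG27 minus WT (x axis), of the 50 tested genes of the wider pathway, 1 point a gene, in rows by role; orange points were called higher, blue lower and open points not called, and points within a row are spread vertically for legibility. Flvcr2, Enpp2 and Bhmt lie farthest to the right and Smpd3 and Pld1 farthest to the left, and rows with several genes hold points on both sides of 0 except the CDP-choline, transfer and acetylcholine rows.

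The fall of Slc44a5 was set beside its chromosomal surroundings. Its 5 nearest tested neighbors on each side, on chromosome 3, had a median difference of -0.28. Of these neighbors 6 were lower, 1 higher and 3 not called, where 40% of all genes tested were lower and 30.5% higher. The median of the 737 other tested genes on the chromosome was -0.31. Next to Slc44a5, Acadm, a dehydrogenase of fatty acid oxidation, differed by -0.77 and the homeobox gene Lhx8 by 0.18, which was not called. Further out, Rabggtb, Tyw3, Cryz and Fpgt fell by 0.69, 0.32, 0.23 and 0.49, and Msh4 rose by 0.38. Asb17os and Tnni3k, at -0.17 and 0.26, were not called. The lowest neighbor was St6galnac3 at the fifth place, with WT and IG27 means of -4.41 and -7.68, at background in IG27 cells and at least 1.91-fold lower. St6galnac3 entered the test only through the WT arrays. Acadm and Lhx8, on either side of Slc44a5, thus kept signals above background in both groups.

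**Figure D4:**
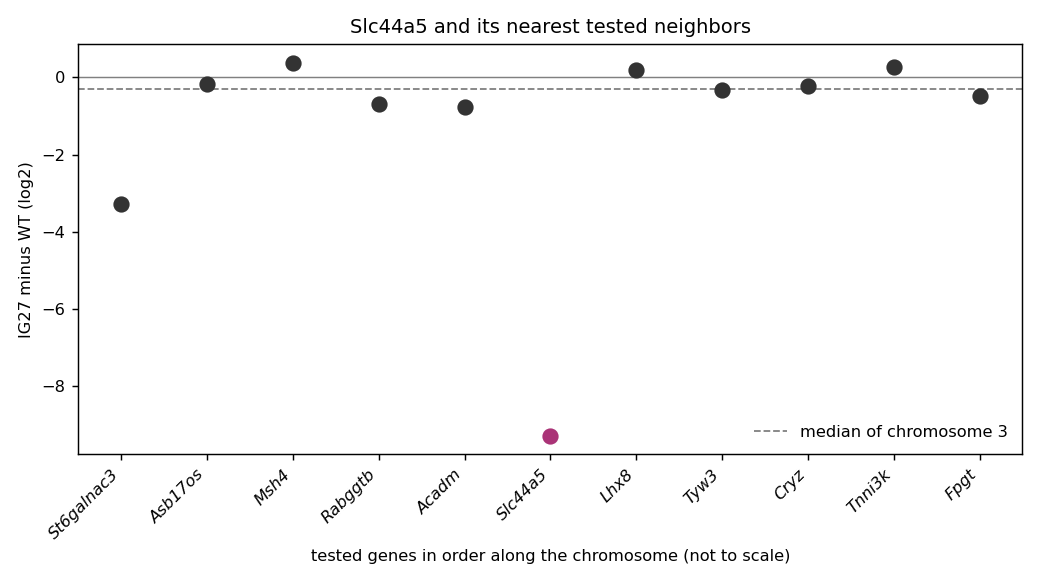
Log2 difference, IG27 minus WT (y axis), of Slc44a5 and the 5 nearest tested genes on each side in chromosomal order (x axis, not to scale); the dashed line is the median of the tested genes of chromosome 3 at -0.31. Slc44a5 lies at -9.28, and of its neighbors only St6galnac3 lies below -1.

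Chromosome medians differed, and 7 of the 8 tested members other than Slc44a5 had the sign of their chromosome's median, Chpt1 being the exception. Over all tested genes that share was 65.1%. Chromosome 9, which carries Slc44a2, had a median of -0.64 over 812 genes. Of the 10 neighbors of Slc44a2, 8 were lower (median -0.88), where 40% of all genes tested were. That count ran from 1 to 8 over the 10 members and was highest for Slc44a2. Chromosome 4, which carries Slc44a1, had a median of 0.33 over 967 genes, above the 0.22 of Slc44a1 itself. The medians were 0.18 for the chromosome of Chka, 0.30 for that of Chkb, 0.09 for that of Pcyt1a, 0.08 for that of Chpt1 and -0.12 for that of Pemt. The part of these chromosome-wide differences in the members' values was not tested.

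The 3 genes whose centered values over the 6 arrays lay nearest to those of Slc44a5, by root mean square distance among 14884 genes, were Ppp1r9a at 0.189, Cyb5b at 0.235 and Gm10487 at 0.436 log2 units. Ppp1r9a, which encodes an actin-binding protein of neurons, read 1.38, 1.11 and 1.27 in WT and -7.54, -7.83 and -7.58 in IG27 cells, at least 96.8-fold lower. Cyb5b, an outer mitochondrial membrane cytochrome, read 1.16, 1.02 and 1.15 against -7.61, -7.89 and -7.61, at least 87.5-fold lower. All 3 were above background on 3 of 3 WT arrays and on 0 of 2 IG27 arrays with flags, so below background their likeness to Slc44a5 has no firm order.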

How the data were processed

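RNA of 3 WT and 3 IG27 samples was labeled with Cy3 and hybridized to 1 slide of single-color Agilent mouse arrays. The authors read the spots with Feature Extraction (version 9.1 in the submitters' processing notes, 10.7.3.1 in the file headers, design build mm9), and the deposited processed signal is an intensity on a linear scale. A deposited value table repeats this intensity by probe. It matched the scanner output for 56305 of 56305 single-spot probes of each complete array (relative tolerance 1e-04), but its columns for WT replicates 2 and 3 were exchanged, so scanner labels were used. IG27 replicate 2 had 285 complete spots of 62976 in its scanner output, 255 of 255 single-spot probes equaled the table, and the table gave its values.

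Log2 intensities minus each array's 75th percentile were compared. Outlier-flagged spots (107 to 210 per complete array) were left out. Probes were named through their RefSeq accessions with the GRCm38.p6 gene table (32994 of 56605 probes). Genes entered the test through their brightest probe, among those flagged well above background on all complete arrays of at least 1 group. limma (version 3.58.1, R 4.3.3, lmFit and eBayes, two-sided) compared the groups, with Benjamini-Hochberg adjustment over 14898 genes and a threshold of 0.05. The fit was tested on simulated data. A bound ("at least") sets a group's mean against the lowest signals well above background on the other group's arrays, or the measured value where higher. IG27 replicate 2, without flags, was given the higher limit of the other IG27 arrays. A probe can read above this limit without being flagged, so small bounds are approximate. Promoter sequences were RefSeq's. Precision is limited by 3 arrays a group.

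The text names all members, other pathway genes called with a log2 difference of 1 or more, a few called genes for roles without one, the 5 nearest tested neighbors of Slc44a5 on each side and the 3 genes most like it. Flvcr1, Slc22a5, Mfsd2a, Smpd4, Slc5a7, Pctp, Chdh, Chat, Ache and Bche were chosen after their values were seen. Members and lists were chosen with earlier results of these data known. Alternatives covered normalization, background correction, filters, probe choice, variance model, blocks, the value table read by its labels and each array left out; the fit probe by probe and the values within a slide row were added after seeing the data. The normexp alternative used the median signals of the 5 complete arrays, without IG27 replicate 2, and an offset of 50. The fold changes and p-values were computed here from these intensities.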

Additional observations from a re-analysis of the deposited data

How the results depend on the processing

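Slc44a5 stayed lower in every alternative that measured it. Its measured log2 difference, -9.28 as reported, was -5.71 with normexp background correction, -7.22 with the mean of its probes and -5.16 with its dimmest probe, and -9.35 to -9.18 with 1 array left out; the stricter filter removed it because no IG27 array was above background, and the unadjusted threshold and the other variance model leave its value as it is. The neighbors' median, -0.28, was -0.47 with quantile normalization and -0.32 to -0.25 with 1 array left out. The number of other members called ran from 6 to 8, also with 1 array left out (genes over all, 9800 to 10145; wider pathway, 39 to 42), against 7 as reported. With the slide row as a block, which sets IG27 against WT replicate 2 alone, 6 members, 36 pathway genes and 8946 genes were called, against 10501 genes as reported. At the threshold of the methods, an unadjusted p of at most 0.05, the counts were 8, 42 and 10855. Slc44a2, Slc44a3, Chka, Chkb, Pcyt1a and Pemt kept direction and call under all 18 alternatives (complete arrays only and without IG27 replicate 2 are the same 5 arrays), with Slc44a3 between -1.85 and -0.73 and Pcyt1a between 0.22 and 0.40.

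The labels number the samples of both groups 1 to 3. Same-numbered samples did not deviate together (correlations 0.0118, 0.0395 and 0.0763, none over 0.1), and not every sample correlated best with its own number. With replicate number as a block, 10309 genes, 7 members and 41 pathway genes were called, and Slc44a5 and the neighbors' median were -9.28 and -0.28.

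Single pathway genes changed sign in 17 cases, most of them where a gene's probes disagree or its difference is near 0; the cause was not tested. With quantile normalization Ptdss2 was -0.01, Pisd 0.10 and Chat -0.03, and with normexp Pnpla7 was -0.01. With the mean of the probes Slc22a5 was 0.33 and Etnk1 -0.15. With the dimmest probe Slc22a5 was 0.87, Etnk1 -0.38, Etnk2 0.14, Pisd 0.03, Lpin1 0.38, Gpcpd1 0.11 and Chat -0.20. With the slide row as a block Ptdss2 was -0.07 and Smpd4 -0.20, and with 1 array left out they ran from -0.01 to 0.07 and from -0.27 to 0.74, both lowest without WT replicate 1. Intensities near background limit Slc44a3, Slc44a4, Bhmt, Pnpla6, the WT level of Flvcr2 and the IG27 levels of Slc44a5 and Smpd3.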
